A study of Mus musculus with 12 samples.

Results

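Chemokines are small secreted proteins that bind receptors on leukocytes and draw them into tissue. Those with adjacent cysteines near the start of the mature protein are named Ccl, and those with a residue between the cysteines are named Cxcl. In fat, adipocytes, stromal cells and macrophages make them, and Ccl2 with its receptor Ccr2 is known for bringing in blood monocytes that become macrophages when fat mass grows. The 10 genes described here, of 18194 measured, are the chemokines Ccl2, Ccl5, Ccl6, Ccl7, Ccl8, Ccl9, Ccl11, Cxcl1 and Cxcl12 and the receptor Ccr2. They were taken by the gene symbol that the platform's annotation gives to a probe set, which yielded 19 of the 45101 probe sets on the array, from 1 to 4 a gene. All 10 genes had at least 1 probe set, and no filter removed any.

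The RNA was that of abdominal fat pads; the mice were C57BL/6 females, either wild type or p47phox null. p47phox, the product of Ncf1, is a cytosolic protein that phagocytes need to switch on NADPH oxidase, the enzyme that makes superoxide. From postnatal day 28 the mice ate casein, the control diet, or a high fat diet for 13 weeks, which gives 4 groups (either genotype on either diet). Each group has 3 pools of fat pads and each pool 1 Affymetrix array. How many animals make up a pool is not stated in the labels, and p-values measure the spread between pools, which may in part be technical.

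Values are log2 and centred on the median of the 12 pools for each probe set. They show how pools differ and not how abundant a transcript is, so levels of different genes cannot be ranked. For the same reason the tissue cannot be checked by the presence of its markers, and only their variation can be read. In a whole fat pad, fewer cells of a type and less RNA per cell cannot be told apart. Several pools stood apart in markers of other tissues. The medians of 16 liver, 10 adrenal and 9 B lymphocyte genes were 4.49, 2.61 and 1.42 in wild type casein pool 3. The median of 20 skeletal muscle genes was 4.58 in wild type high fat pool 2 and 3.77 in null high fat pool 1. It was 2.93 in wild type casein pool 1 and 1.95 in null casein pool 1. Below, the 3 pools that stand apart are wild type casein pool 3, wild type high fat pool 2 and null high fat pool 1. The median of 22 ovary, oviduct and uterus genes lay between -0.74 and -0.59 in wild type high fat pools and between 0.14 and 0.78 in null ones. On casein it was 0.20, -0.77 and -0.66 in wild type pools 1, 2 and 3. In the null casein pools it lay between -0.04 and 0.25. Ncf1, the gene disrupted by the null allele, lay between 0.07 and 0.85 in the 6 wild type pools and between -0.29 and -0.19 in the 6 null pools.

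The genes lie in few places. On mouse chromosome 11 the order is Ccl2, Ccl7, Ccl11, Ccl12 and Ccl8, followed further along by Ccl5, Ccl9, Ccl6, Ccl3 and Ccl4. Cxcl1 is on chromosome 5, Cxcl12 on chromosome 6 and Ccr2 on chromosome 9. The RefSeq promoter table, of assembly GRCm38.p6, held 6 of the 10 members: Ccl6, Ccl8, Ccl9, Cxcl1, Cxcl12 and Ccr2. Each entry runs from 250 bases before to 50 bases after the annotated start. The promoters of Ccl6 and Ccl9, neighbours on the minus strand whose values ran alike over the pools, are shown beside that of Ccl8, a gene of the same chromosome whose values did not follow them. The entries are at chr11:83593038-83593337 for Ccl6, chr11:83578587-83578886 for Ccl9, both on the minus strand, and chr11:82114935-82115234 on the plus strand for Ccl8. Capitals mark, in Ccl6 and Ccl9, every run of at least 10 bases that the pair shares exactly. In Ccl8 they mark matches to TATAAA and to GAGGAA, the core of the macrophage factor PU.1, on either strand.

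Ccl6: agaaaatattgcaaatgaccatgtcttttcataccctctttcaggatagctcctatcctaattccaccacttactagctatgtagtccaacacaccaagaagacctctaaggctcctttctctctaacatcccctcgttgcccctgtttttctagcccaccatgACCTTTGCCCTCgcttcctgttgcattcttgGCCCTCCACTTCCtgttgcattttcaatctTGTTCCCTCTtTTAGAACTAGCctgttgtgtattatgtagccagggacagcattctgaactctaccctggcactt
Ccl9: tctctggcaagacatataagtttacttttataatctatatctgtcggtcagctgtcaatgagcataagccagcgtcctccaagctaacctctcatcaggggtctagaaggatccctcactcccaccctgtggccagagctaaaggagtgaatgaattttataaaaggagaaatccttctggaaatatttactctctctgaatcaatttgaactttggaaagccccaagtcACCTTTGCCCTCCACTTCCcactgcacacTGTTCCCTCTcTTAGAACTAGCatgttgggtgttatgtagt
Ccl8: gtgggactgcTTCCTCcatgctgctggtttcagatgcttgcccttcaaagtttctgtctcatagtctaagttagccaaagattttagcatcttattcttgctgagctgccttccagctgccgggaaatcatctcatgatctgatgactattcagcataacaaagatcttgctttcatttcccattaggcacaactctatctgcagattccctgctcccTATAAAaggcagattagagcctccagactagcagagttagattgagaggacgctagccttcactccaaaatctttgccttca

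Runs shared by Ccl6 and Ccl9 covered 46 bases of the first and 40 of the second, with a longest run of 13 bases. In Ccl6 these runs all lie before the annotated start, and in Ccl9 some lie after it. Among the other 14 pairs of the 6 promoters no run reached 10 bases. A search of both strands for 5 motifs gave few matches. A pair of overlapping NF-kB matches began 71 and 70 bases before the start of Cxcl1, in the bases gggaatttccc, and another began 35 bases before that of Ccl9. NF-kB matches occurred in 8.46% of the 32851 promoters in the table. TGANTCA, the AP-1 motif, matched once in Ccl9, 53 bases before the start (7.81% of all promoters), and TATAAA matched in Ccl8, 32 bases before the start, and in Ccl9 (13.6%). GAGGAA matched in Ccl8 alone (28.3%), and TTCNNNGAA, a STAT motif, in none of the 6 (8.30%). Such matches describe letters in these windows and are not measured binding sites.

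The pools were first compared by genotype on the high fat diet, where the members differed most. Ccl11, the eosinophil chemoattractant eotaxin, fell in the null pools, and it was the member with the widest gap. Ccl7, Ccl9, Ccl6, Ccl2, Ccr2 and Cxcl12 also kept the groups apart, with each null pool below each wild type pool, but did not pass the test. Ccl5, Cxcl1 and Ccl8 overlapped. In limma, 1 of the 10 members passed at an adjusted p under 0.05, beside 5.92% of the 18194 genes, so by that count the members stand near the background. Without overlap of the groups and lower in the null pools were 7 of 10 members, beside 17.3% of all genes. The same held for 11 of 17 mature adipocyte and 14 of 18 endothelial marker genes, with median differences of -0.51 and -0.45. The median difference of the members was -0.51 (log2) and that of all genes -0.03. Without wild type high fat pool 3 the members' median was -0.26 with 7 of 10 below 0. The calls over all genes rest on single pools too: 1077 genes passed, 32 without wild type high fat pool 3 and 0 without null high fat pool 2 or 3.

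**Figure D1:**
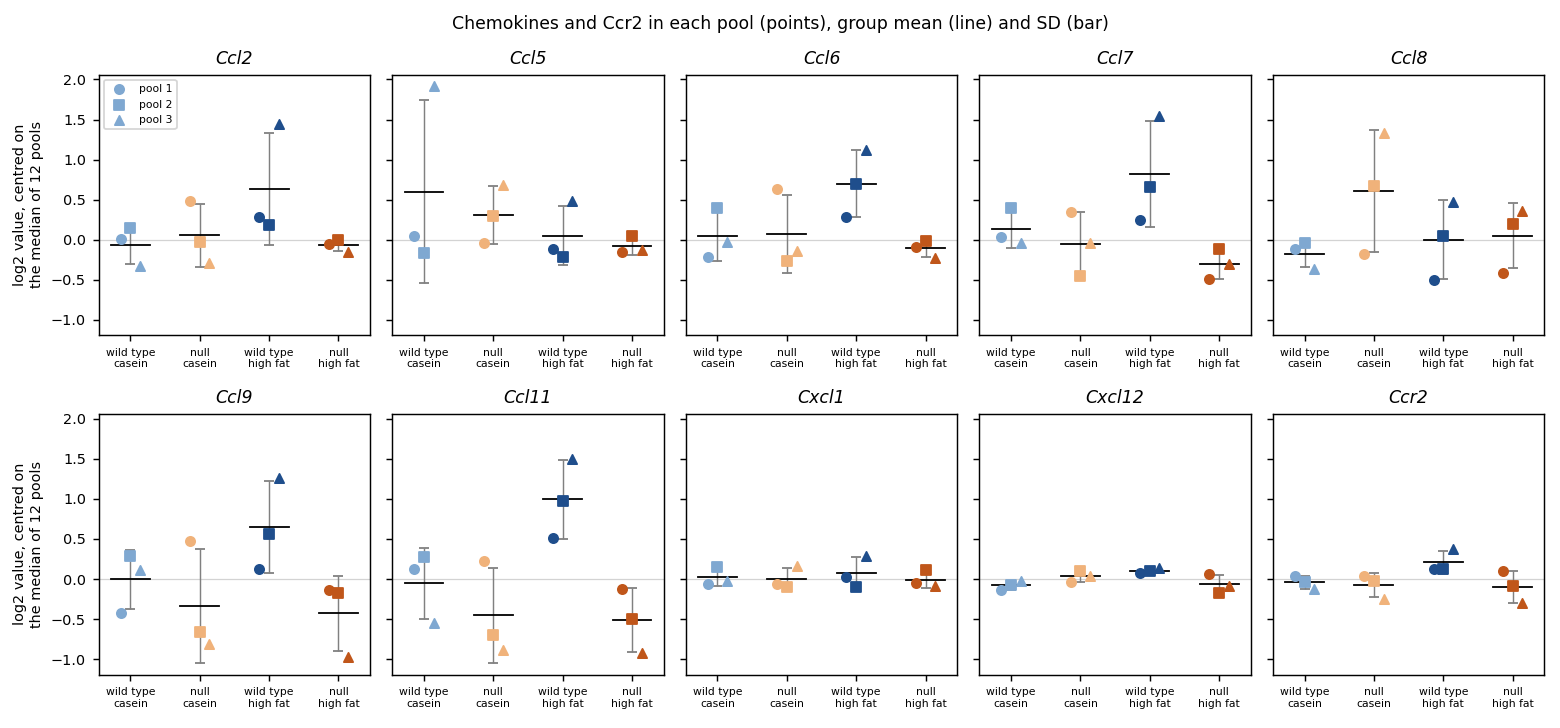
Centred log2 values (vertical axis) of the 10 genes in the 4 groups (horizontal axis), with a point for each pool, a line at the group mean and a bar for the SD of 3 pools. Wild type high fat pool 3 is the highest of the 12 pools for Ccl2, Ccl6, Ccl7, Ccl9, Ccl11, Cxcl1, Cxcl12 and Ccr2, Ccl5 is highest in wild type casein pool 3 and Ccl8 in null casein pool 3.

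Ccl11 acts through Ccr3 and is made in fat largely by stromal cells. Its log2 values were 0.51, 0.97 and 1.50 in the wild type high fat pools and -0.12, -0.50 and -0.93 in the null high fat pools. The wild type casein pools were at 0.12, 0.27 and -0.55, and the null casein pools at 0.23, -0.70 and -0.88. The wild type high fat pools are thus the 3 highest of the 12, and the casein groups overlap each other. The difference between genotypes on high fat was -1.51 ± 0.35 (SE, n = 3 pools a group), with a 95% interval from -2.29 to -0.74 (limma adjusted p = 0.0375). The call ended without null casein pool 2 (adjusted p = 0.0571), without wild type high fat pool 1, 2 or 3 (adjusted p = 0.0567, 0.0865 and 0.12) and when null high fat pool 2 or 3 was left out (adjusted p = 0.113 or 0.148), while the difference stayed between -1.75 and -1.26. It also ended with quantile normalization applied again (adjusted p = 0.0631), without the 3 pools that stand apart in muscle, liver or adrenal markers (adjusted p = 0.0649) and with the replicate block (adjusted p = 0.0567).

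Ccl2 and Ccl7 are the monocyte chemoattractants that bind Ccr2. Ccl2 was at 0.28, 0.18 and 1.44 in the wild type high fat pools and at -0.05, -0.0046 and -0.15 in the null high fat pools. The wild type casein pools were at 0.0046, 0.14 and -0.33, and the null casein pools at 0.48, -0.03 and -0.30. The value rests largely on 1 pool: the difference of -0.70 ± 0.30 (adjusted p = 0.182) became -0.30 without wild type high fat pool 3. Ccl7 was at 0.25, 0.66 and 1.55 in the wild type and at -0.49, -0.11 and -0.30 in the null high fat pools. Its casein values ran from -0.04 to 0.40 in wild type and from -0.46 to 0.35 in null pools, so those groups overlap. The difference for Ccl7 was -1.12 ± 0.30 (95% interval from -1.78 to -0.45; limma adjusted p = 0.0547), and -0.75 without wild type high fat pool 3.

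Ccr2 is the receptor of Ccl2 and Ccl7 on inflammatory monocytes and has 4 probe sets. The mean over them was 0.13, 0.12 and 0.38 in the wild type high fat pools and 0.10, -0.09 and -0.30 in the null high fat pools, which leaves a narrow gap between the groups. The difference was -0.31 ± 0.12 (adjusted p = 0.141). The probe sets did not move as one and differed by -0.56, -0.37, -0.24 and -0.05, of which the second alone kept the groups apart. Their pairwise Pearson r over the 12 pools ran from -0.25 to 0.77, so the mean dilutes the probe sets that vary most.

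Ccl8 encodes a further monocyte chemoattractant, which in the mouse signals mainly through Ccr8, and its values took another course. They were -0.51, 0.04 and 0.47 in the wild type high fat pools and -0.41, 0.20 and 0.36 in the null high fat pools. The wild type casein pools were at -0.11, -0.04 and -0.37, and the null casein pools at -0.18, 0.67 and 1.34. The high fat groups span the same range, with a difference of 0.05 ± 0.36 (adjusted p = 0.95) and a 95% interval from -0.75 to 0.85. The widest gap for Ccl8 was between genotypes on casein, at 0.78 ± 0.36 (adjusted p = 0.61), where null pool 1 lay below 2 of the 3 wild type pools. That value was 0.42 without null casein pool 3 and 1.18 without null casein pool 1.

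Ccl6 and Ccl9 are related chemokines, known in the mouse and made by macrophages and other myeloid cells, that act through Ccr1. Ccl6 was at 0.28, 0.70 and 1.12 in the wild type high fat pools and at -0.09, -0.01 and -0.23 in the null high fat pools. Its casein values ran from -0.22 to 0.40 in wild type and from -0.26 to 0.63 in null pools. Ccl9 was at 0.13, 0.56 and 1.27 in the wild type and at -0.14, -0.17 and -0.97 in the null high fat pools. On casein Ccl9 ran from -0.42 to 0.29 in wild type and from -0.82 to 0.47 in null pools. For both genes the groups are apart on high fat and overlap on casein, and null casein pool 1 is the highest casein pool. The differences on high fat were -0.81 ± 0.26 for Ccl6 (adjusted p = 0.0893) and -1.08 ± 0.39 for Ccl9 (adjusted p = 0.122). Both probe sets of each gene kept the high fat groups apart with null lower, at -0.75 and -0.86 for Ccl6 and at -0.90 and -1.26 for Ccl9. Without wild type high fat pool 3 the gene differences were -0.60 for Ccl6 and -0.77 for Ccl9.

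Ccl5, which draws T lymphocytes and other leukocytes, was set apart by a single pool. It stood at 1.91 in wild type casein pool 3, against 0.04 and -0.16 in the other wild type casein pools. The null casein pools were at -0.04, 0.30 and 0.68, the wild type high fat pools at -0.11, -0.21 and 0.48 and the null high fat pools at -0.15, 0.05 and -0.13. That pool 3 is also the one with the B lymphocyte median of 1.42 and with a median of 0.48 over 16 T and NK lymphocyte genes, which lay between -0.11 and 0.14 in the other 11 pools. The part of these cells in the value of Ccl5 was not tested. The difference between genotypes on high fat was -0.13 ± 0.45 (adjusted p = 0.898; 95% interval from -1.13 to 0.87). The diet difference in the wild type was -0.55 with that pool and 0.11 without it.

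Cxcl1, a neutrophil chemoattractant, spanned 0.39 over the 12 pools, at percentile 29.7 of the spans of all genes. Its mean over 3 probe sets was 0.03, -0.10 and 0.29 in the wild type high fat pools and -0.05, 0.11 and -0.09 in the null high fat pools. The groups overlap, and the difference was -0.08 ± 0.11 (adjusted p = 0.726; 95% interval from -0.33 to 0.18). Its probe sets were little alike (pairwise r from -0.01 to 0.22) and differed by -0.34, 0.04 and 0.07. The first stood at 0.81 in wild type high fat pool 3 and between -0.23 and 0.21 in the other 11 pools.

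Cxcl12, the stromal chemokine that holds leukocytes and progenitors through Cxcr4, spanned 0.31. Its mean was 0.07, 0.11 and 0.13 in the wild type high fat pools and 0.06, -0.18 and -0.08 in the null high fat pools. The groups are barely apart, with a difference of -0.17 ± 0.07 (adjusted p = 0.186). The 3 probe sets of Cxcl12 went different ways. One differed by -0.48 ± 0.14 (limma adjusted p = 0.0758 over all probe sets) and the others by -0.04 and 0.01, and pairwise r over the 12 pools ran from -0.25 to -0.12. The mean of Cxcl12 therefore stands for no single probe set.

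**Figure D2:**
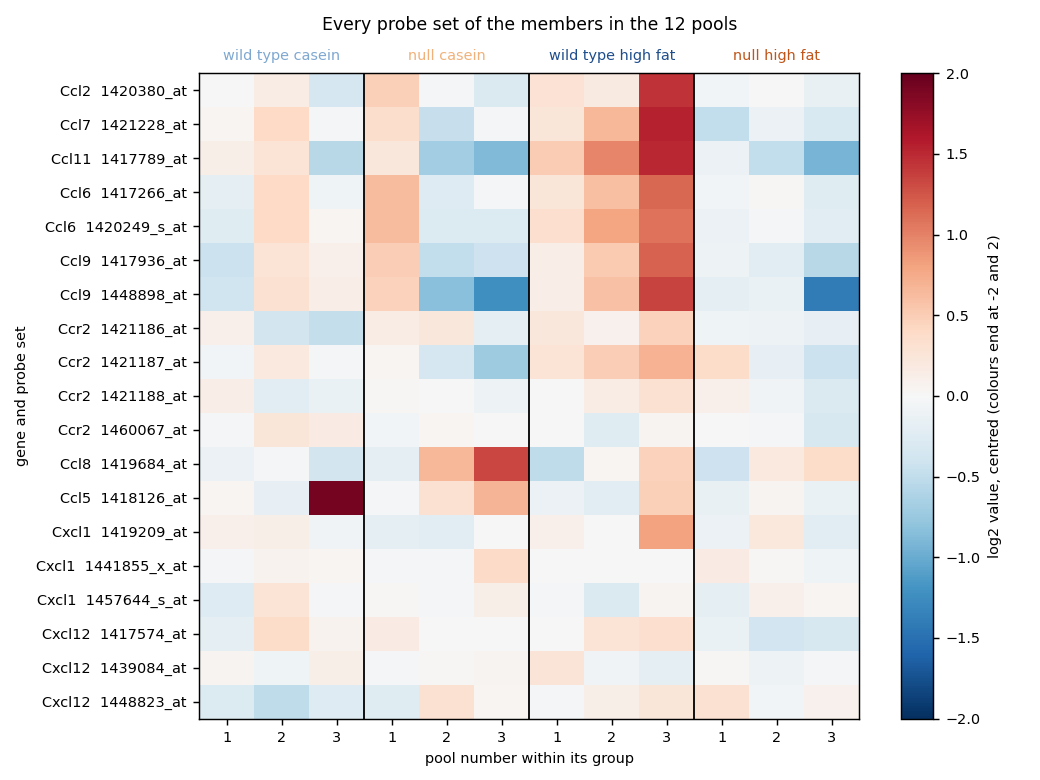
Centred log2 values of the 19 probe sets (rows, with the gene) in the 12 pools (columns, by group), in colour from blue (low) to red (high), with colours ending at -2 and 2. The column of wild type high fat pool 3 is red from Ccl2 to Ccl9, and the probe sets of Cxcl1 and Cxcl12 differ among themselves.

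The diet was compared within each genotype to ask how the high fat diet acts with and without p47phox. In wild type pools 9 of 10 members stood higher on high fat than on casein, with a median difference of 0.45 against 0.001 over all genes, and 0 of 10 passed in limma, beside 0% of the 18194 genes. At an unadjusted p under 0.05 there were 5 members and 1384 genes. Groups did not overlap, with high fat higher, for 4 of 10 members (Ccl2, Ccl11, Cxcl12 and Ccr2) beside 7.07% of all genes. For Cxcl12 only the probe set at 0.45 kept the groups apart, with the others at 0.12 and -0.02. It is not the probe set that differed between genotypes on high fat, where it stood at 0.01. For Ccr2, too, only a single probe set, at 0.45, kept the groups apart, with the others at 0.50, 0.22 and -0.19. The Ccr2 probe set that kept the genotypes apart on high fat was the one at 0.50. The largest difference was that of Ccl11, 1.05 ± 0.35 (adjusted p = 0.592), followed by Ccl2 at 0.70 ± 0.30 and Ccl7 at 0.68 ± 0.30 (adjusted p = 0.652 for both). Ccl9 differed by 0.66, Ccl6 by 0.65 and Ccr2 by 0.25. Without wild type high fat pool 3 the median over the members was 0.23, with Ccl2 at 0.30, Ccl7 at 0.32, Ccl9 at 0.35 and Ccr2 at 0.16.

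In null pools the diet differences of all 10 members, as means over probe sets, were below 0, with a median of -0.11. A single probe set each of Ccr2, Cxcl1 and Cxcl12 went the other way, at 0.26, 0.10 and 0.08. Another probe set of Cxcl12, at -0.33, kept the groups apart. Here 0 of 10 members passed in limma, beside 0% of all genes, and at an unadjusted p under 0.05 there were 0 members and 727 genes. Ccl8 differed by -0.56 ± 0.36 and Ccl5 by -0.39 ± 0.45, and the others lay between -0.25 and -0.01 (adjusted p = 0.9996 for each). The value for Ccl8 was -0.95 without null casein pool 1 and -0.19 without null casein pool 3. The direction of the median rests on small values: without null casein pool 1 the median was -0.0003, with 5 of 10 members below 0. With the probe set of highest mean taken for each gene, 8 of 10 were below 0. After repeated quantile normalization 6 were, and with array weights 5, with a median of 0.05.

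The interaction tests the diet difference in null pools minus that in the wild type, and it shares all 4 groups with the comparisons above. It was below 0 for 9 of 10 members, with a median of -0.74, but 0 passed in limma, beside 0% of all genes. At an unadjusted p under 0.05 there were 3 members (Ccl6, Ccl11 and Cxcl12) and 1113 genes. Ccl11 had the largest value, -1.11 ± 0.50 (adjusted p = 0.789; 95% interval from -2.21 to -0.02), and Ccl7 the next, -0.93 ± 0.43 (adjusted p = 0.789). That the diet acts differently on these genes in the 2 genotypes is therefore not shown here. The median became -0.43 without wild type high fat pool 3.

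On casein no member passed between genotypes. Of the 10 members 6 were below 0, with a median of -0.03, and 0 passed in limma, beside 0% of all genes (0 members and 1478 genes at an unadjusted p under 0.05). The largest difference was that of Ccl8, given above. Ccl2 differed by 0.11 ± 0.30, Ccl7 by -0.19 ± 0.30 and Ccl6 by 0.02 ± 0.26. Ccl11 differed by -0.40 ± 0.35 (adjusted p = 0.761) with a 95% interval from -1.17 to 0.38. No member kept the groups apart in the mean over its probe sets, though 1 probe set of Cxcl12 did narrowly, at 0.38 with null pools higher.

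**Figure D3:**
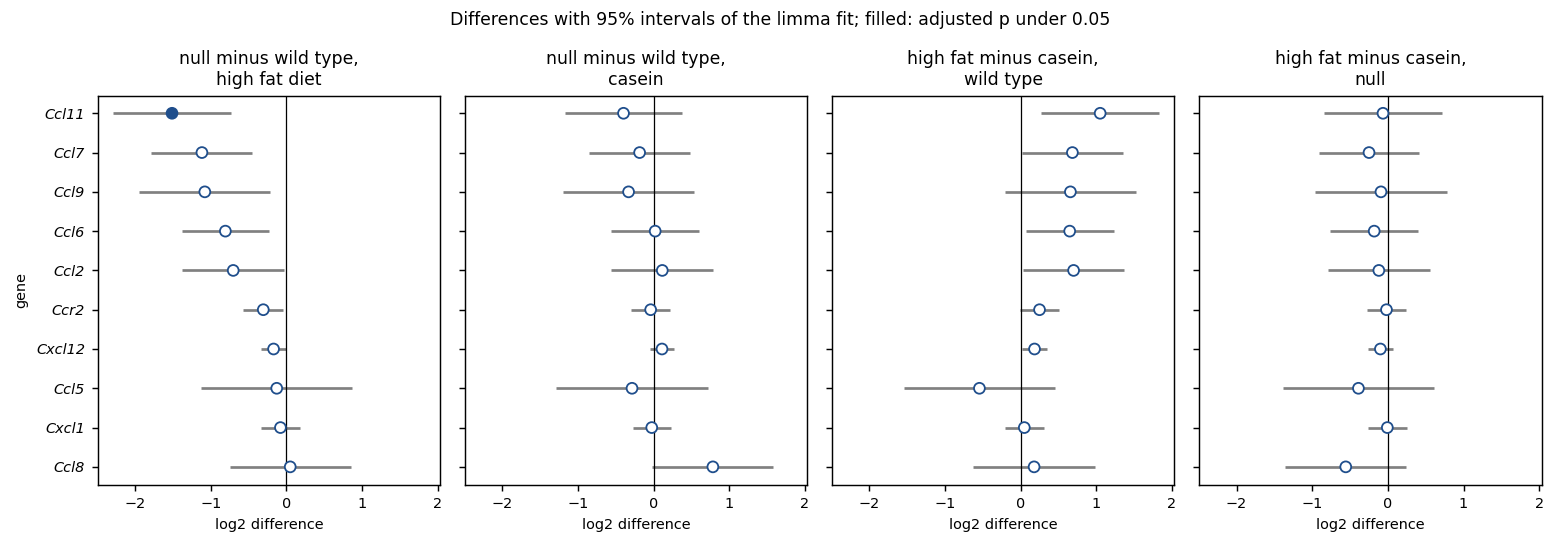
Log2 differences (horizontal axis) of the 10 genes in the 4 simple comparisons, with 95% intervals of the limma fit; a filled point marks an adjusted p under 0.05. Ccl11 at -1.51 on the high fat diet is the filled one, and intervals for Ccl5, Ccl8 and Ccl9 are wide.

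Averaged over both diets, Ccl11 was again the member that passed, falling by 0.96 ± 0.25 in null pools (limma adjusted p = 0.045), 1 of 10 members beside 7.52% of all genes. That call is not independent of the one on high fat, since it uses the same pools, and it ended under the robust fit (adjusted p = 0.0521), without the 3 pools that stand apart (adjusted p = 0.0615) and with the replicate block (adjusted p = 0.0645). It ended likewise without wild type casein pool 1 or 2, null casein pool 2 or 3, any of the 3 wild type high fat pools, or null high fat pool 2 or 3 (adjusted p from 0.0535 to 0.11). Ccl9 differed by -0.71 ± 0.28 and Ccl7 by -0.65 ± 0.21 (adjusted p = 0.14 and 0.0871). Averaged over both genotypes, 0 members passed for diet, beside 0.0055% of all genes, with Ccl11 highest at 0.49 ± 0.25 (adjusted p = 0.942).

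The other genes of the chemokine system were read from lists. Of 26 other chemokine ligands 0 passed between genotypes on high fat, with a median of -0.01 and 13 of 26 below 0. Ccl24, the second eotaxin, was at 0.51, 0.45 and 0.63 in the wild type and at -0.05, -0.18 and -0.34 in the null high fat pools, a difference of -0.72 ± 0.21 (adjusted p = 0.0637). Cxcl14, a chemokine of epithelium and stroma, differed the other way, by 0.78 ± 0.23 (adjusted p = 0.0677), and passed in the average over diets (0.61; adjusted p = 0.0474). That call held with wild type casein pool 1, null casein pool 1 or null high fat pool 1 left out and ended without any 1 of the other 9 pools (adjusted p from 0.064 to 0.115). It ended as well with the replicate block, with quantile normalization applied again and without the 3 pools that stand apart (adjusted p = 0.0673, 0.0589 and 0.0936). Of 20 other receptors 13 were below 0 between genotypes on high fat, with a median of -0.07. Of the 20, 0 passed as higher and 1 passed as lower in null pools, beside 5.92% of all genes. That one was Ackr3, the atypical receptor that takes up Cxcl12, which fell by 0.77 ± 0.14 (adjusted p = 0.0242). The call ended without wild type high fat pool 2 or 3 (adjusted p = 0.0612 and 0.08), null high fat pool 2 or 3 (adjusted p = 0.0893 and 0.0974) or the 3 pools that stand apart (adjusted p = 0.0679). Its values were 0.45, 0.84 and 0.67 in the wild type and 0.00, -0.13 and -0.23 in the null high fat pools, so the groups are well apart. It differed by -0.52 ± 0.14 on casein (adjusted p = 0.542) and fell by 0.65 in the average over diets (adjusted p = 0.0131), a call that held with each of the 12 pools left out in turn (adjusted p from 0.00182 to 0.0417).

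On casein the ligands with the smallest p were Ccl12, a Ccr2 ligand of the mouse whose gene neighbours Ccl11, at 0.67 ± 0.24, and Cxcl10, which is induced by interferon, at 0.59 ± 0.21 (both adjusted p = 0.574). For both, all 3 null pools lay above all 3 wild type pools. Cxcr4, the signalling receptor of Cxcl12, differed by -0.63 ± 0.20 (adjusted p = 0.549). In the wild type diet comparison Ccl24 differed by 0.61 and Cxcl9 by 0.51, with Ccrl2 and Ackr3 at 0.33 and 0.35. For diet in null pools the smallest p were those of Ccl25 at -0.24 and Cxcl3 at -0.16. Of 25 inflammatory response genes, such as cytokines and NF-kB targets, 0 passed on high fat, with a median of -0.06; Selp, the P-selectin of activated endothelium, differed by -0.78 ± 0.21 (adjusted p = 0.0547) and Csf1, the macrophage growth factor, by -0.32 ± 0.10 (adjusted p = 0.0923).

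Marker lists of the cells in fat were read in the same pools. The median of 30 macrophage and monocyte genes was -0.02, 0.16 and 0.54 in the wild type high fat pools and 0.01, 0.05 and -0.02 in the null high fat pools. Of those 30 genes 26 were lower in null pools on high fat, with a median difference of -0.27, and 0 passed. Adgre1, which encodes the macrophage protein F4/80, was at -0.03, 0.31 and 0.74 in the wild type and at -0.16, 0.08 and -0.27 in the null high fat pools. Wild type high fat pool 3 is the highest pool for the macrophage median and for Adgre1, as it is for Ccl2, but for these markers the high fat groups overlap. The median of 17 mature adipocyte genes lay between 0.19 and 0.20 in the wild type high fat pools and between -0.55 and -0.06 in the null ones. All 17 were lower in null pools, and 6 of them passed, beside 5.92% of all genes. Leptin, the adipocyte hormone encoded by Lep, fell by 1.64 ± 0.28 (adjusted p = 0.0225), and it was at 1.71 in wild type high fat pool 3. Its adjusted p was 0.0504 without that pool, and 0.087 and 0.0834 without null high fat pool 2 and 3. The median of 18 endothelial genes lay between 0.23 and 0.55 in the wild type and between -0.24 and 0.01 in the null high fat pools. Of these 18 genes 17 were lower in null pools, and 3 passed. Of the 22 ovary, oviduct and uterus genes 8 passed as higher in the same comparison and 1 lay below 0, with a median difference of 1.20. Inha rose by 6.79 ± 1.32 (adjusted p = 0.0261). Inha no longer passed when wild type high fat pool 1, 2 or 3 or null high fat pool 2 or 3 was left out (adjusted p from 0.0588 to 0.098) or when the 3 pools that stand apart were (adjusted p = 0.0561). Without wild type high fat pool 3 or null high fat pool 2 or 3, 0 genes of the adipocyte, endothelial and reproductive tract lists passed, while their median differences kept their sign. Leaving out wild type high fat pool 1 or 2 left 1 adipocyte gene and 0 of the other lists, and leaving out null casein pool 2 left 2 adipocyte, 0 endothelial and 5 reproductive tract genes. All 14 mesothelial genes stood higher in the null high fat pools, with a median difference of 0.76 and 1 called; their median was -1.32 in wild type high fat pool 3, and the median difference was 0.32 without it. The adipocyte, endothelial, reproductive tract and mesothelial medians keep the high fat groups apart, as the members' median does, and the macrophage median does not. The progenitor and mammary epithelial medians keep them apart as well. The median of 18 progenitor and fibroblast genes ran from 0.04 to 0.20 in wild type and -0.05 to 0.02 in null high fat pools. On high fat 11 of these 18 were lower in null pools and 1 passed, beside 5.92% of all genes. That of 13 mammary epithelial genes ran from -0.16 to -0.01 in wild type and 0.07 to 0.18 in null high fat pools. Gene by gene, 5 of 30 macrophage genes kept the groups apart with null lower, beside 17.3% of all genes, so they stand near the background. With null higher there was 1 of 30, beside 2714 of the 18194 genes. For adipocyte and endothelial genes the groups were apart with null lower in 11 of 17 and 14 of 18. The part of these cells in the chemokine differences was not tested. Since values are centred, no marker can be said to be at 0 in any pool.

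**Figure D4:**
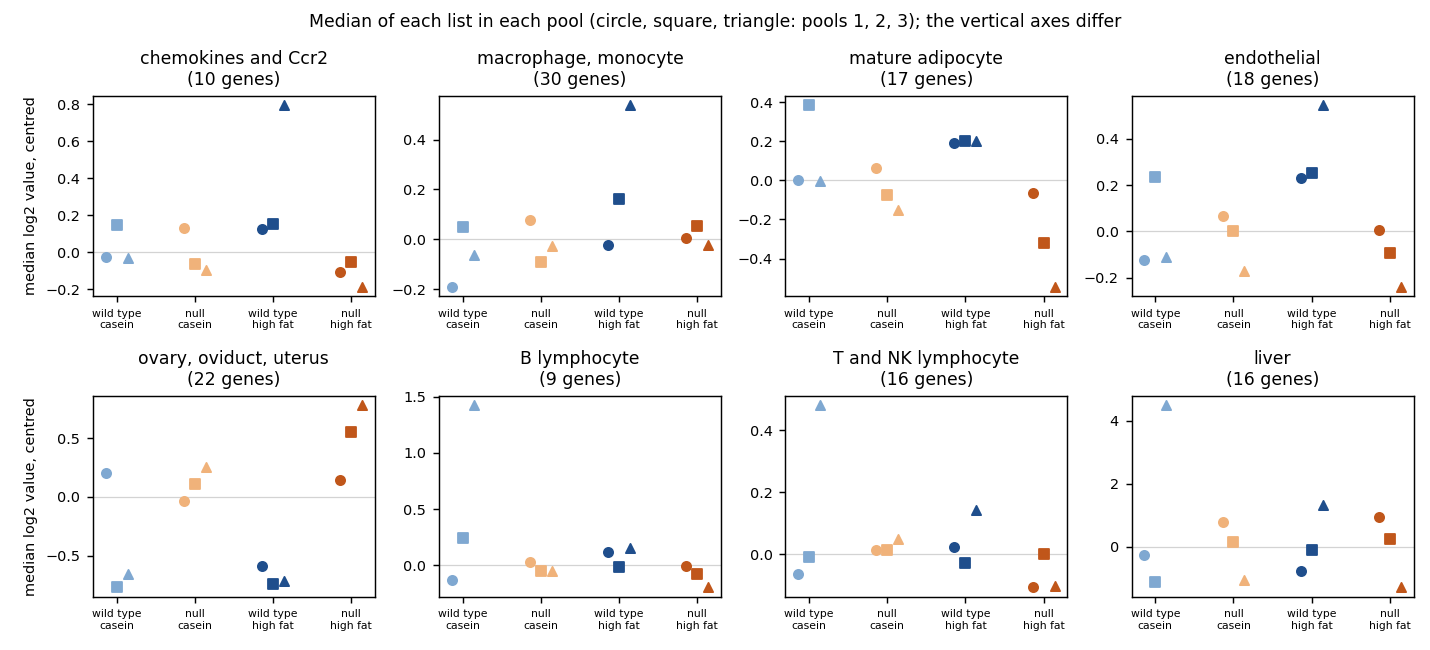
Median centred log2 value (vertical axis, scaled per panel) of the members and of 7 marker lists in each pool (points) of the 4 groups (horizontal axis). The members and the macrophage list are both highest in wild type high fat pool 3, at 0.80 and 0.54, and the lymphocyte and liver lists in wild type casein pool 3.

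The likeness of the members to each other was described by Pearson's r over the 12 pools, which share groups and tissue mix, so no test is given. Among Ccl2, Ccl6, Ccl7, Ccl9 and Ccl11, a set picked after their values were seen, r ran from 0.80 to 0.93 in the 10 pairs and from 0.59 to 0.89 without wild type high fat pool 3. Ccl6 and Ccl9 were the most alike pair at 0.93, followed by Ccl6 and Ccl7. Between Ccl8 and these 5 genes r ran from -0.37 to 0.01, and from -0.66 to -0.25 without that pool. Ccr2 was closest to Ccl11 among the members, at 0.90.

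The genes most like each member over all 18194 were named as well. Ccl9 was closest to Fcgr2b, an inhibitory antibody receptor of myeloid and B cells (r = 0.97), and then to Btc and Pxdc1. Ccl6 was closest to Slc11a1, the metal transporter of phagocyte vesicles (0.96), Pf4, a chemokine of platelets and macrophages (0.95), and Srpx2. Ccl7 was closest to Fes, a tyrosine kinase of myeloid cells (0.96), Arel1 and Bdnf. Ccl11 was closest to Cachd1 (0.97), Afap1l1 and Gpat3, an enzyme of triglyceride synthesis in adipocytes. These 4 members kept r between 0.89 and 0.96 with each of their 3 genes when the highest pool was left out.

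Ccl2 was closest to Zdhhc2 (0.94), Anxa5, which binds phosphatidylserine, and Hilpda, a lipid droplet protein, and r fell to between 0.77 and 0.83 without its highest pool. For Ccl5 the closest genes were G6pc and Glyat, enzymes of the liver, and Shh, at 0.95 to 0.97, and at 0.78 to 0.83 without wild type casein pool 3, the pool with the high liver median. Ccl8 was closest to Alg1 (0.91), Sgo2a and Ctsd, the lysosomal protease cathepsin D (0.89). Ccr2 was closest to Sri (0.95), Tmem245 and Sgce, Cxcl1 to 1700025H01Rik (0.92), Olah and Asphd2, and Cxcl12 to Cldn34d (0.86), 4930578G10Rik and Irx4.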

How the data were processed

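The deposited file holds 1 value table of 45101 probe sets and 12 arrays. Per the labels, 8 µg of total RNA was labelled with biotin; GCOS and RMA are named in the submitters' processing notes, without version. The deposited values were taken as log2, since RMA gives log2 values; the authors had centred every probe set on its median over the 12 arrays (0 depart by more than 1e-06). A gene's value is the mean of its probe sets; 34958 have 1 gene, 932 several and 9211 none. Names follow RefSeq (GRCm38.p6; 34754 matched). limma 3.58.1 (R 4.3.3) tested the differences in 1 fit of 4 group means (8 residual and 2.5 prior degrees of freedom), two-sided, with Benjamini-Hochberg adjustment over 18194 genes. The script was tested on simulated data. The number of arrays limits the precision. Members, lists and alternatives were chosen with earlier results of these data known; pools left out for the likeness, and the alternatives for Ackr3, Cxcl14, Lep, Inha and the marker lists, were chosen after seeing the data. Named were all members, the list genes that passed or else the 2 with the smallest p, 3 genes most like each member, Ncf1, Adgre1, Lep and Inha.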

Additional observations from a re-analysis of the deposited data

How the results depend on the processing

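Over the 20 alternatives that give member values, 1325 of 1356 member values kept their side of the threshold, 21 lost the call (all Ccl11) and 10 gained one; 0 called values changed sign and 70 values that were not called did. For genotype on high fat, members called were 2 with genes of at least median span, 0 after repeated quantile normalization, 6 with array weights, 0 without the 3 pools that stand apart and 0 with the replicate block, and 0 to 1 leaving out a pool. Genes called were 1808 with each probe set tested, 655 with quantile normalization, 5120 with weights, 440 without those 3 pools, 542 with the replicate block and 0 to 1617 leaving out a pool. For the genotype average, members called were 3 with weights, 0 with the robust fit, without the 3 pools or with the replicate block, and 0 to 2 leaving out a pool; genes called were 2648 by probe set, 4009 with weights, 548 without the 3 pools, 829 with the replicate block and 157 to 2339. Genes called on casein were 3 by probe set, 1 with quantile normalization and 0 to 46. For diet they were 1 without the 3 pools and 0 to 15 in wild type, 942 with weights (1 member, Cxcl12) and 0 to 1 in null, and averaged 0 with quantile normalization or the replicate block, 5 with weights and 0 to 9. The interaction gave 0 to 10. The cause was not tested. The estimate of array weights did not converge and gave most weight to null high fat pool 2 (9.50). The labels do not say whether pool numbers pair the pools across groups. The r of deviations was over 0.1 in 3 of 18 same-numbered pairs (-0.62 to 0.59), which cannot settle it, since other tissues also move the pools. With 3 pools a group, differences such as that of Ccl8 on casein could not be settled.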

Other observations

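Ccl24 was named for its small p between genotypes on high fat. Ccl11 and Ccl24, the eotaxins, kept the high fat groups apart, null lower, as did 17.3% of all genes. The median of 12 eosinophil and mast cell genes did not: it ran from 0.01 to 0.07 in wild type high fat pools and from -0.05 to 0.14 in null ones. Their median difference was -0.05, with 0 called. Most of these genes mark mast cells, and the eosinophil genes Ear1 and Ear2 were absent, so this median says little about eosinophils. Neutrophils are the cells that Cxcl1 draws. The median of 11 neutrophil genes ran from -0.01 to 0.08 in wild type high fat pools and from -0.08 to 0.04 in null ones. Of the 11 genes 7 were lower in null pools, with a median difference of -0.06. Only 1 of the 11 passed, as higher, beside 5.92% of all genes.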
